A study of Homo sapiens with 4 samples.

Results

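The Hedgehog pathway genes described here were 9 genes fixed by name, the ligand genes SHH, IHH, and DHH, the receptor gene PTCH1, the signal transducer gene SMO, the transcription factor genes GLI1, GLI2, and GLI3, and the inhibitor gene HHIP, among 20033 protein-coding genes of the annotation. They were examined in 4 peak lists from CUT&RUN, which releases and sequences the chromatin fragments around an antibody-bound protein. HSSY II cells, an established human synovial sarcoma line that carries the SS18::SSX1 fusion, received DMSO or 2.5 µM MS67 for 4 days, and the antibodies recognized the SS18::SSX fusion oncoprotein or WDR5. MS67 is a PROTAC, a small molecule that recruits an E3 ligase to WDR5 so that WDR5 is degraded, and DMSO is its solvent. All 4 libraries came from this 1 cell line and carried 50000 murine NIH-3T3 cells as a spike-in. Each target and treatment had 1 library, so no difference below has a replicate check and none was tested.

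Hedgehog ligands are secreted proteins that bind PTCH1. Unbound PTCH1 keeps SMO inactive, and ligand binding releases SMO, which lets the GLI proteins act as activators rather than as truncated repressors at their target genes. PTCH1, GLI1, and HHIP are themselves classical GLI targets, and the pathway patterns the limb and the neural tube and acts in mesenchymal tissue. WDR5 is a subunit of the KMT2 histone H3 lysine 4 methyltransferase complexes, and SS18::SSX is the fusion oncoprotein that enters the BAF chromatin remodeling complex in synovial sarcoma.

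A peak was assigned to a gene if it overlapped the gene body or 20 kb on either side, a window of 1157.9 kb in all for the 9 genes. For each peak, the number of DNA fragments over its summit and the local background were recovered from the deposited fold enrichment and p-value, and both are given as counts or as multiples of the genome-wide coverage of the same list. That coverage was 0.541 fragments per bp for SS18::SSX with DMSO, 0.737 for SS18::SSX with MS67, 0.368 for WDR5 with DMSO, and 0.168 for WDR5 with MS67. The lists held 15141, 1175, 35605, and 14123 peaks in the same order. Every deposited peak was used, and counts under the stricter cut-offs that the paper gives stand near the end. Multiples of coverage were not scaled to the spike-in, so they compare places within a library better than amounts between libraries. Over whole lists the median summit was 29.6 times the coverage with DMSO and 40.7 with MS67 for SS18::SSX. For WDR5 it was 35.4 and 47.5 times. A DMSO peak was called kept if it shared 1 bp or more with a peak for the same target in the MS67 cells.

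The DNA under the peaks that the results turn on is printed here from hg38, plus strand, as 151 bases centred on a peak summit. The letters searched on both strands were TGGGTGGTC (the GLI motif), its core GGGTGGTC, CCAAT (NF-Y), GGGCGG (GC box), CACGTG (E-box), and TGACTCA (AP-1), and every match is in capitals in the peak sequences. The first pair are the SS18::SSX peaks that were kept with MS67, upstream of SHH (chr7:155814692-155814842) and in an IHH intron (chr2:219058632-219058782), and the third is the GLI1 intronic SS18::SSX peak (chr12:57461028-57461178), the only member peak with the GLI core.

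SHH upstream, SS18::SSX: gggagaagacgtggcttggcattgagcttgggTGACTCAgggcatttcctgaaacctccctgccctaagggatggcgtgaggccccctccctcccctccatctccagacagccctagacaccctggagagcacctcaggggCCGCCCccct

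IHH intron, SS18::SSX: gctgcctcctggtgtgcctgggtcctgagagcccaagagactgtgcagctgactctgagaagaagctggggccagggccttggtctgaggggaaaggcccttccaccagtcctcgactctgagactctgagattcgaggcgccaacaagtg

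GLI1 intron, SS18::SSX: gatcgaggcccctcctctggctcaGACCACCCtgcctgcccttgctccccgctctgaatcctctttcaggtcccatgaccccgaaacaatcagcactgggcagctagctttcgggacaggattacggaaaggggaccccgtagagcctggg

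The next 4 lie under WDR5 peaks that were kept with MS67. They are the GLI2 intronic peak with the most fragments of any member peak (chr2:120740868-120741018), the GLI2 upstream peak with the highest −log10 q (chr2:120723202-120723352), the peak beyond the 3′ end of GLI3 (chr7:41942725-41942875), and the peak beyond the 3′ end of SHH (chr7:155787377-155787527).

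GLI2 intron, WDR5: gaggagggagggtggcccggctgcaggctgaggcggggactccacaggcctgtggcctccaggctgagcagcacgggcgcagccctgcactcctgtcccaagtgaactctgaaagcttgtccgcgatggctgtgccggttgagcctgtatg

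GLI2 upstream, WDR5: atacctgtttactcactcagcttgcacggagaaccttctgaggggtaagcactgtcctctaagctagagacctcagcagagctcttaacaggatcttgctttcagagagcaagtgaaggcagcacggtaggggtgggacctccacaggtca

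GLI3 downstream, WDR5: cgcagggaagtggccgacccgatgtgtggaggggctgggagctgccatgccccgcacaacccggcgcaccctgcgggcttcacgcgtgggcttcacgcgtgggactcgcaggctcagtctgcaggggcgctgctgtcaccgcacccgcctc

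SHH downstream, WDR5: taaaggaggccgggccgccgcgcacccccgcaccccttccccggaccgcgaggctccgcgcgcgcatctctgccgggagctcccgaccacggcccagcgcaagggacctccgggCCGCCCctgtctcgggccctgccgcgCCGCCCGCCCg

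The SHH upstream sequence had an AP-1 match and a GC box, and the SHH downstream sequence had 3 GC boxes and 24 CpG dinucleotides. The GLI3 sequence held 15 CpG dinucleotides, whereas the GLI2 intronic sequence held 7 and the GLI2 upstream sequence 2, and these 3 sequences had none of the searched letters. The full GLI motif was in none of the member peaks in any list, and it was in 0.337% of all SS18::SSX DMSO peaks and 0.213% of all WDR5 DMSO peaks at the same length. Its core was in 1 of 17 member peaks of SS18::SSX with DMSO, at 1.18% of that whole list, and in none of the 57 of WDR5 with DMSO, at 0.857% of that list. These and the following counts cover the 151 bases at each summit and leave out matches elsewhere in a peak. GC boxes were in 5 of 17 and 10 of 57 of these peaks, beside 16.3% and 18.5% of the lists, and AP-1 letters in 1 and 3, beside 1.99% and 2.33%. CCAAT was in 1 and 7 of them, beside 14.1% and 12.5%, and CACGTG in 1 and 2, beside 3.30% and 3.26%. A match is a description of the letters and not evidence of a bound factor.

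With DMSO, SS18::SSX peaks lay at 8 of the 9 genes, all but SMO, and WDR5 peaks at all 9. The 9 windows held 17 SS18::SSX peaks and 57 WDR5 peaks. With MS67, 4 SS18::SSX peaks were called in the windows of SHH, IHH, and GLI2, and 23 WDR5 peaks in those of 7 genes, all but IHH and HHIP. Over all protein-coding genes, 37.1% had an SS18::SSX peak in the same window with DMSO and 4.53% with MS67, and 79.2% had a WDR5 peak with DMSO and 60.1% with MS67. The median member window was 64.9 kb, beside 67.5 kb over all genes, but the windows of GLI2 and GLI3 were 297 and 343 kb. A longer window can hold a peak more readily, so these shares are not compared at equal length. The median number of peaks per member window was 2 for SS18::SSX and 5 for WDR5 with DMSO, beside 0 and 2 over all genes.

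Per 100 kb of window, the 9 genes held 1.47 SS18::SSX and 4.92 WDR5 peaks with DMSO, beside 0.701 and 1.78 over all protein-coding windows. With MS67, the density was 0.345 for SS18::SSX and 1.99 for WDR5, beside 0.0512 and 0.742. GLI2 alone contributed 20 of the WDR5 DMSO peaks and 12 of the WDR5 MS67 peaks, and without GLI2 the WDR5 density was 4.30 with DMSO and 1.28 with MS67. The median −log10 q at the members was 3.58 for SS18::SSX and 4.41 for WDR5 with DMSO, beside 3.68 and 4.37 in the lists, and with MS67 it was 2.97 and 3.07, beside 3.39 and 3.38.

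**Figure D1:**
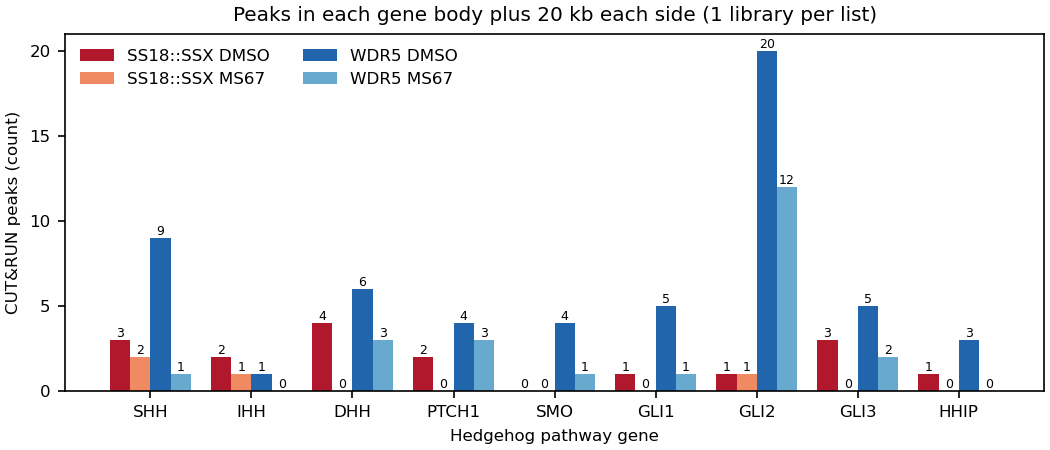
Bars give the number of peaks in each gene body plus 20 kb on each side, for the 4 lists, each from 1 library. GLI2 has 20 WDR5 peaks with DMSO and 12 with MS67, more than any other member, and SMO has no SS18::SSX bar.

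Most member peaks lay outside promoters, which were counted as the 1000 bp before and the 100 bp after any annotated start, with the peak centre inside. An SS18::SSX promoter peak was present at PTCH1 alone with DMSO and at no member with MS67, beside 13.4% and 0.719% of all protein-coding genes. A WDR5 promoter peak was present with DMSO at SHH, PTCH1, GLI1, and GLI2, or 4 of 9, beside 42.9% of all genes. With MS67 no member had one, beside 27.7% of all genes. Of the 8604 genes with a WDR5 promoter peak with DMSO, 49.9% also had one with MS67, and 0 of the 4 members did. This rests on 4 genes and was not tested. With promoters of 1 kb each side, 2 of the 9 members had a WDR5 promoter peak with MS67. In the scaling to MS67 coverage described below, the GLI2 promoter peak alone of these 4 reached the lowest −log10 p of the MS67 list.

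Of the 17 SS18::SSX DMSO peaks at the 9 genes, 2 were kept with MS67 (11.8%, exact 95% interval 1.46 to 36.4%), beside 5.81% of the whole list. Of the 57 WDR5 DMSO peaks, 17 were kept (29.8%, 18.4 to 43.4%), beside 25.0% of the list. The WDR5 share was 10 of 20 at GLI2 (50%, 27.2 to 72.8%) and 7 of 37 at the other members (18.9%, 7.96 to 35.2%), and these intervals overlap. All these intervals are Clopper-Pearson intervals that cover counting error only, and neighbouring peaks of a gene share their chromatin and are not independent.

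The coverage of the MS67 library was above that of DMSO for SS18::SSX and below it for WDR5. When the fragments and background of each DMSO summit were scaled to the MS67 coverage, all 17 SS18::SSX member peaks reached the lowest −log10 p of the MS67 list, 5.04. So did 96.9% of the whole list. Here the scaling multiplied the DMSO values by 1.36, which raises them, so this outcome was largely set in advance. Nor does it take in the median local background under all SS18::SSX peaks. That was 12.2 times the coverage with MS67 beside 5.72 with DMSO. For WDR5, whose MS67 library had 0.458 times the DMSO coverage, 21 of 57 member peaks reached the lowest −log10 p, 4.06, as did 43.7% of the list. Of the 40 WDR5 member peaks without an overlapping MS67 peak, 9 reached it, of which 5 lay in the DHH window, 2 at HHIP, 1 at the GLI2 promoter, and 1 in the GLI1 window. A WDR5 MS67 peak lay within 1 kb of 4 of these 9, at 27, 161, and 473 bp in the DHH window and at 664 bp in the GLI1 window. This scaling leaves out counting error and was made on single libraries, and 5 of the 17 kept WDR5 peaks were called with MS67 although their scaled values did not reach the limit. The part of depth in any single missing peak was not tested.

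The SS18::SSX and WDR5 peaks of the DMSO cells were also compared with each other. An overlap of at least 1 bp was found for 4 of the 17 SS18::SSX peaks (23.5%, 6.81 to 49.9%), beside 33.7% of the list, and these were 1 at SHH, 1 at IHH, and 2 in the DHH window. A WDR5 peak lay within 1 kb of 11 of the 17 (64.7%, 38.3 to 85.8%), beside 54.9% of the list. Both intervals include the share of the list.

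SHH, the ligand gene best known from limb and neural tube patterning, is ENSG00000164690 at chr7:155799980-155812463 on the minus strand. It had 3 SS18::SSX peaks with DMSO and 2 with MS67, and 9 WDR5 peaks with DMSO and 1 with MS67. Its strongest SS18::SSX peak was 2.30 kb upstream of the start at chr7:155814566-155814960, with 31 fragments at the summit and a −log10 q of 6.14. With MS67, a peak at chr7:155814524-155814904 shared 339 bp with it and again had 31 fragments, which is 57.3 times the coverage with DMSO and 42.1 times with MS67. This interval holds the sequence with the AP-1 match printed above. Its −log10 q with MS67 was 3.37.

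The other SHH peaks of SS18::SSX were weaker. The peak 7.72 kb upstream had 17 fragments and no MS67 peak, and the peak 15.8 kb along the gene axis, beyond the 3′ end, had 11 fragments. An MS67 peak with 16 fragments lay 239 bp from the latter without touching it. Only 216 protein-coding genes, or 1.08%, had 2 or more SS18::SSX peaks in their window with MS67.

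The WDR5 peaks of SHH with DMSO formed a group around its start. From 6.13 kb upstream to 7.16 kb into the gene there were 6 peaks with 24 to 31 fragments each, 1 of them at the promoter 0.77 kb upstream, at chr7:155813150-155813455. The local background under these 6 was 19.2 to 28.8 times the coverage, a level reached by 3.20% of the WDR5 DMSO peaks, so their folds over background were low, from 2.31 to 3.35. None of the 6 overlapped an MS67 peak, and none reached the lowest −log10 p of the MS67 list when scaled to its coverage. The single kept WDR5 peak of SHH, chr7:155787094-155788147, lay 25.0 kb from the start, beyond the 3′ end, on the CpG-rich sequence printed above, and had 17 fragments with DMSO and 6 with MS67. Per kb of window, 0.514% of protein-coding genes had at least as many WDR5 DMSO peaks as SHH.

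IHH, the ligand gene of growth plate cartilage, is ENSG00000163501 at chr2:219054424-219060921 on the minus strand. It had 2 SS18::SSX peaks with DMSO, both in its introns. The peak at chr2:219059678-219060231, 1.07 kb into the gene, had 31 fragments and the highest SS18::SSX −log10 q of any member, 8.16, and no MS67 peak overlapped it. The neighbouring peak at chr2:219058351-219059411 had 29 fragments and a −log10 q of 6.79, and it was kept as a narrower MS67 peak of 20 fragments at chr2:219058588-219058935 with a −log10 q of 2.06. Relative to coverage, its summit went from 53.6 to 27.1. IHH had 1 WDR5 peak, chr2:219059212-219059373 with 12 fragments, which overlapped the kept SS18::SSX peak of DMSO, and no WDR5 peak with MS67.

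DHH, the ligand gene of Schwann cells and the testis, is ENSG00000139549 at chr12:49086656-49094801 on the minus strand. In its window, 4 SS18::SSX peaks were called with DMSO and none with MS67, and 6 WDR5 peaks with DMSO and 3 with MS67. Only 2 of each DMSO group lay in DHH itself. The SS18::SSX peaks there had 24 fragments over a coding exon, at chr12:49090985-49091482, and 19 over a UTR, and the WDR5 peaks had 24 fragments 0.56 kb into the gene, at chr12:49094119-49094376, and 25 fragments 4.51 kb into it. A long noncoding RNA gene, ENSG00000257346, overlaps DHH, and the coding-exon peak of SS18::SSX and the second WDR5 peak were also centred at its promoters.

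The remaining DHH window peaks belonged by position to its neighbours RHEBL1, which encodes a RHEB-like GTPase, and LMBR1L. They included the 2 SS18::SSX peaks that overlapped WDR5, at the promoters of these neighbours, and all 3 WDR5 peaks of MS67. The WDR5 peaks in the DHH body had no MS67 peak nearer than 15970 bp, and both reached the lowest −log10 p of that list when scaled to its coverage. No peak of either target lay in the DHH body with MS67.

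PTCH1, the Hedgehog receptor, is ENSG00000185920 at chr9:95442980-95517057 on the minus strand and has several annotated starts. With DMSO, its 2 SS18::SSX peaks had 13 fragments at chr9:95512157-95512309 and 10 at chr9:95516625-95516762. The latter had its summit 0.41 kb into the gene, at the promoter of an internal start. Neither peak had an MS67 peak, and the nearest SS18::SSX peak with MS67 was 1705174 bp away from the peak of 10 fragments. WDR5 had 4 peaks with DMSO and 3 with MS67. The kept pair lay in introns at chr9:95501988-95502216 and chr9:95504470-95504684, with 15 and 19 fragments with DMSO and 10 and 11 with MS67, so that the multiples of coverage were 1.45 and 1.26 times those with DMSO.

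The WDR5 peak upstream of the PTCH1 gene start, chr9:95517228-95517403, had 15 fragments and the lowest −log10 q among the WDR5 DMSO member peaks, 1.78. It had no MS67 peak over it, and a WDR5 peak found only with MS67, with 13 fragments, lay 1.40 kb into the gene at chr9:95515630-95515875. The canonical transcript of PTCH1 starts 7.79 kb inside the annotated gene, and its RefSeq promoter (GRCh38.p14, chr9:95509267-95509516, minus strand) holds the full GLI motif TGGGTGGTC, the only match in capitals here, from base 79 of the 250 bases before the start:

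PTCH1 canonical promoter: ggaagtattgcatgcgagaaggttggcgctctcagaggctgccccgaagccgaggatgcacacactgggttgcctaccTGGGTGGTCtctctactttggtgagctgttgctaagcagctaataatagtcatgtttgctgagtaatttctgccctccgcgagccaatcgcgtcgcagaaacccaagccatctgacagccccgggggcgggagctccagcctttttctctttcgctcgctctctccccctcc

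Of the 9 members, 7 had entries in the RefSeq promoter set, with 12 promoters in all, and this was the only one with the GLI motif, which 0.236% of all 35116 promoters of 300 bases hold. It also holds CCAAT and GGGCGG, left in lower case. No peak of any list lay on it. The nearest were an SS18::SSX peak 2.64 kb away and a WDR5 peak 3.01 kb away with DMSO, and a WDR5 peak 4.57 kb away with MS67.

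**Figure D2:**
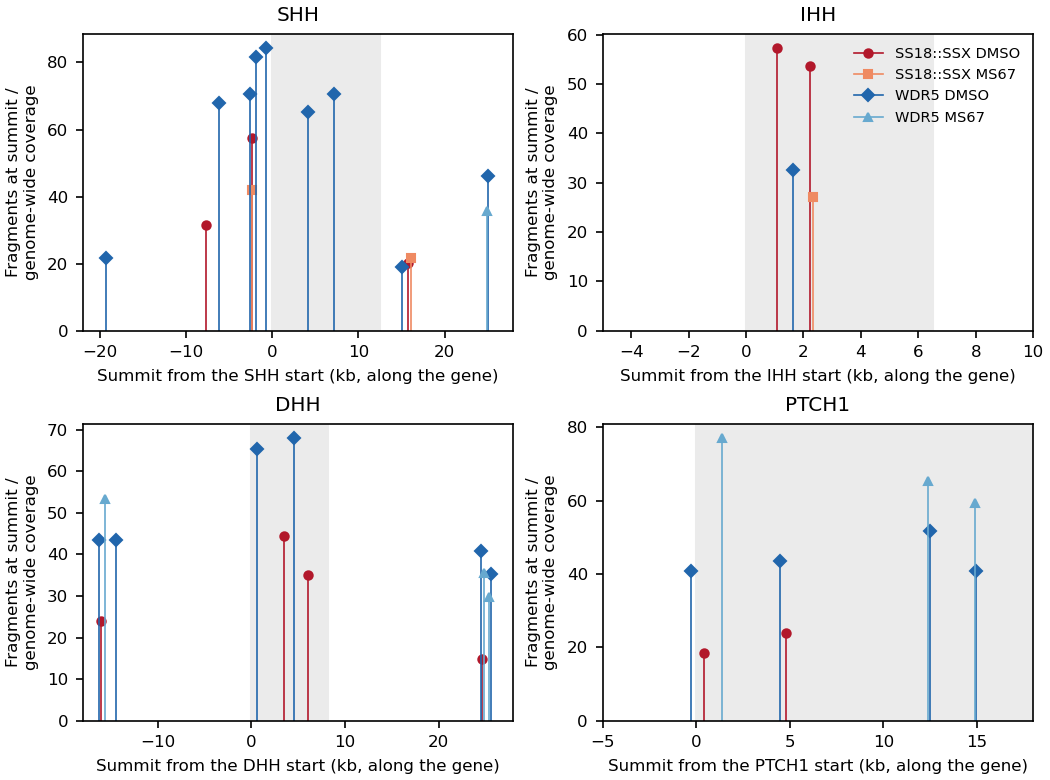
Each stem is a peak summit at its distance from the gene start (kb, positive into the gene) and its height is the number of fragments over the genome-wide coverage of the list, with the gene body in grey. At SHH the 6 WDR5 DMSO summits around the start have no WDR5 MS67 counterpart, while an SS18::SSX stem 2.30 kb upstream is present with both treatments, and the DHH body has no MS67 stem.

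SMO, the membrane protein that passes the signal on, is ENSG00000128602 at chr7:129188633-129213545 on the plus strand. It was the only member without an SS18::SSX peak, and the nearest lay 134004 bp from the nearest of its WDR5 peaks. WDR5 had 2 peaks of 17 fragments each in introns, of which chr7:129189169-129189878, 1.07 kb into the gene, was kept with 12 fragments and chr7:129190250-129190687 was not. Relative to coverage, the kept peak was 1.54 times as high with MS67, although its fragments were fewer. The median summit of the whole WDR5 list was also higher relative to coverage, 47.5 times with MS67 beside 35.4 with DMSO. The other 2 WDR5 peaks of the window, with 8 and 16 fragments, were nearest to the start of AHCYL2 and had no MS67 peak.

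GLI1, a transcription factor gene that is itself switched on by GLI activity, is ENSG00000111087 at chr12:57459785-57472268 on the plus strand. Its SS18::SSX peak, chr12:57460895-57461188, lay 1.32 kb into the gene in an intron, with 12 fragments and a −log10 q of 3.50, and no MS67 peak overlapped it. The GLI core lies within this peak at chr12:57461052-57461059 on the minus strand. One of the 5 WDR5 DMSO peaks was in GLI1, with 13 fragments at its summit 3.18 kb into the gene. Its centre lay in the promoter of an internal start and 733 bp from the nearest GLI1 start. The other 4 and the single MS67 peak were centred at promoters of ARHGAP9 or MARS1, the methionyl-tRNA synthetase gene, and none of the 5 was kept.

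GLI2, which encodes the main activator GLI protein, is ENSG00000074047 at chr2:120735623-120992653 on the plus strand. It had 20 WDR5 peaks with DMSO, a number that 31 protein-coding genes (0.155%) reached, and 12 with MS67, a number that 5 genes (0.0250%) reached. Its gene is long, and per kb of window 16.2% of genes had at least as many WDR5 peaks with DMSO and 11.8% with MS67. The WDR5 peaks ran from 19.5 kb upstream of the start to 169 kb into the gene, and were highest near the start.

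Within the first 10 kb of the GLI2 body, 4 WDR5 peaks with DMSO had 69, 74, 84, and 46 fragments, 3.25 to 6.36 kb into the gene. All 4 were kept, and MS67 had 5 peaks there with 28 to 35 fragments. The peak with 84 fragments, chr2:120740844-120741419, was at 229 times the coverage and had a −log10 q of 21.7, the highest of any member peak. Only 5 WDR5 DMSO peaks in the whole list of 35605 had 84 or more fragments, and 18 of the 14123 WDR5 MS67 peaks had 35 or more. It was overlapped by an MS67 peak at chr2:120740872-120741430 with 30 fragments, 178 times the coverage.

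The GLI2 promoter itself gave another picture. The WDR5 DMSO peak at chr2:120735261-120735448, with its summit 0.24 kb upstream of the start, had 55 fragments, 150 times the coverage, and a −log10 q of 9.85. Its fold over the local background was 3.25, beside a list median of 4.61. No MS67 peak of WDR5 lay nearer than 2515 bp, and the DMSO peak reached the lowest −log10 p of the MS67 list when scaled to its coverage. By fragments and −log10 q, this was the strongest WDR5 member peak without an MS67 peak.

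Upstream of the GLI2 promoter, 3 WDR5 peaks with DMSO were all kept, the outer pair of them among the strongest member peaks. The peak 19.5 kb upstream, chr2:120715375-120716394, had 41 fragments with DMSO and 34 with MS67, or 112 and 202 times the coverage, the largest ratio of any kept pair at 1.81. The peak 12.3 kb upstream, chr2:120722258-120723539, had 34 fragments with DMSO and was overlapped by 2 MS67 peaks of 13 and 10 fragments, and the peak 5.78 kb upstream had 21 and 15. Farther into the gene the peaks were smaller and fewer were kept, 2 of 6 from 10 to 40 kb and 1 of 6 beyond 40 kb.

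SS18::SSX showed nothing comparable at GLI2. Its 1 DMSO peak, chr2:120736322-120736545 in an intron 0.89 kb into the gene, had 17 fragments and was not kept. A peak found only with MS67, chr2:120737876-120738164 with 21 fragments, lay 1331 bp further in, and it overlapped a WDR5 peak found only with MS67, chr2:120737963-120738129 with 30 fragments. This was the only place at the members where peaks of both targets overlapped with MS67.

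**Figure D3:**
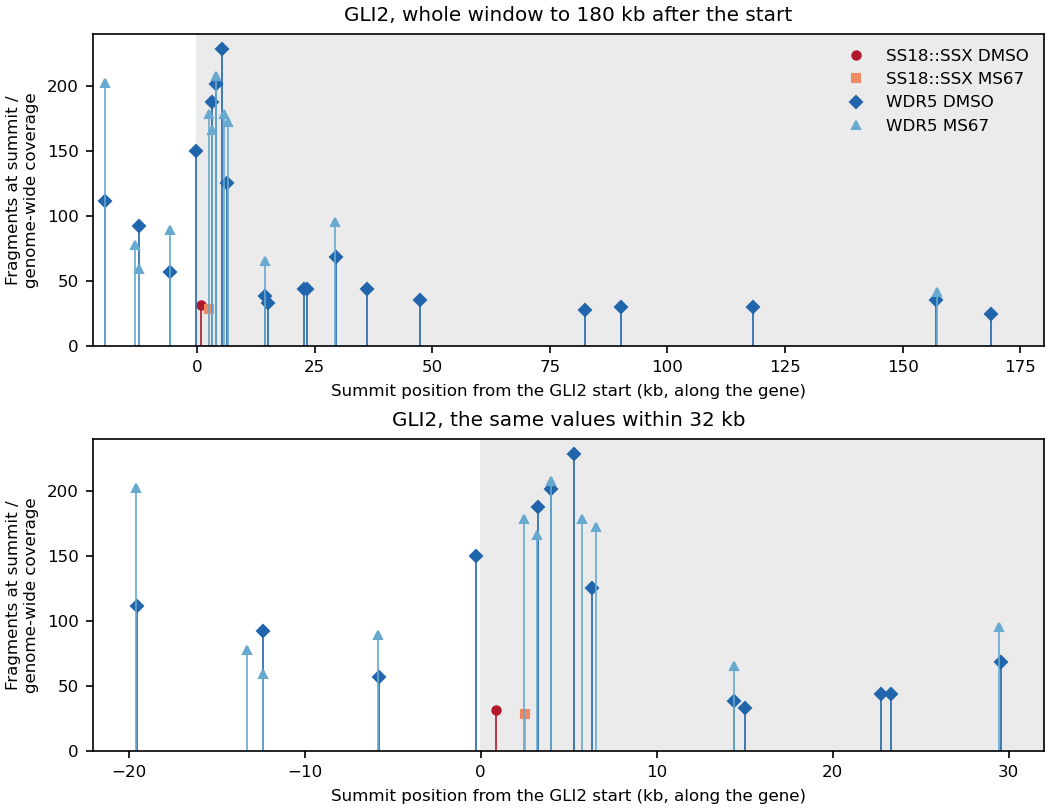
Stems are peak summits along GLI2 by distance from its start (kb), with height in multiples of the genome-wide coverage and the gene body in grey, and the lower panel enlarges the same values. The WDR5 stems near 3 to 6 kb reach 229 with DMSO and 208 with MS67, the promoter stem of 150 is present with DMSO only, and the SS18::SSX stems stay at 31.4 and 28.5.

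The raised WDR5 signal at GLI2 was broader than its peaks. The local background under the WDR5 DMSO peaks of the promoter and first 10 kb was 44.2 to 58.9 times the coverage, beside a list median of 4.91. With MS67, no WDR5 peak was called at the promoter. The background under the MS67 peaks 2.46 to 6.56 kb into the gene was 49.7 to 59.7 times, beside a median of 4.61. At or above the lower end of these ranges were 33 WDR5 DMSO peaks (0.0927%) and 21 MS67 peaks (0.149%). With DMSO these included 16 peaks nearest to FZD8, 7 nearest to GLI2, and 5 nearest to INHBB, and with MS67 they included 14 nearest to FZD8 and 6 nearest to GLI2. INHBB lies in the same Mb as GLI2, chromosome 2 from 120 to 121 Mb. In that stretch the median background under WDR5 peaks was 14.0 times the coverage with DMSO and 21.5 times with MS67, values that 0.954% and 0.269% of the 1 Mb stretches with at least 5 peaks reached. Under SS18::SSX peaks it was 9.10 and 11.7 times, which 18.6% of such stretches reached with DMSO and 33.0% of all stretches with a peak reached with MS67. The background under the single SS18::SSX peak near the GLI2 start was 6.41 times with either treatment. The DMSO peak lay 0.89 kb into the gene and the MS67 peak 2.50 kb. The list medians were 5.72 times with DMSO and 12.2 with MS67. The part of a higher DNA copy number of this stretch was not tested.

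GLI3, which encodes the GLI protein best known as a repressor, is ENSG00000106571 at chr7:41960949-42264100 on the minus strand and had no promoter peak of either target. Its 3 SS18::SSX peaks with DMSO, at 10, 6, and 9 fragments, were in introns or beyond the 3′ end and had no MS67 peak. WDR5 had 5 peaks with DMSO and 2 with MS67. The strongest, chr7:41942490-41943053, lay beyond the 3′ end on the CpG-rich sequence printed above, with 23 fragments, a fold of 8.46, and a −log10 q of 13.5. It was kept with 8 fragments and a −log10 q of 4.18. The intronic peak chr7:42097331-42097518 was also kept, with 16 fragments with DMSO and 9 with MS67.

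HHIP, the membrane protein that binds and sequesters Hedgehog ligands, is ENSG00000164161 at chr4:144646156-144745271 on the plus strand. It had 1 SS18::SSX peak, with 12 fragments in an intron 8.45 kb into the gene, and 3 WDR5 peaks, and none of either target with MS67. The strongest WDR5 peak, chr4:144644777-144645467, lay 0.84 kb upstream of the start within an intron of the antisense gene HHIP-AS1 and had 17 fragments. The other WDR5 peaks had 16 fragments 9.32 kb into the gene and 7 fragments 36.1 kb into it. No WDR5 peak with MS67 lay nearer than 415091 bp to these 3, and the peaks of 17 and 16 fragments reached the lowest −log10 p of that list when scaled to its coverage.

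The kept WDR5 peaks had a median −log10 q of 5.91 with DMSO, beside 3.52 for those not kept, and a median of 21 fragments beside 15.5. GLI2 carried the difference in fragments, with medians of 37.5 and 12.5, whereas at the other members they were 17 and 16. The 17 kept peaks formed 19 pairs with MS67 peaks, and the MS67 summit relative to coverage was 0.642 to 1.81 times that with DMSO, with a median of 1.17 and 12 pairs above 1. At GLI2 the median was 1.17 over 11 pairs, and at the other members 1.12 over 8. The 2 SS18::SSX pairs, at IHH and SHH, had ratios of 0.506 and 0.734. Over the whole lists the median summit relative to coverage was also higher with MS67, 47.5 beside 35.4 for WDR5 and 40.7 beside 29.6 for SS18::SSX. Because the ratios of the pairs hold no spike-in scaling and only pairs called in both libraries, they do not measure how much protein was left.

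**Figure D4:**
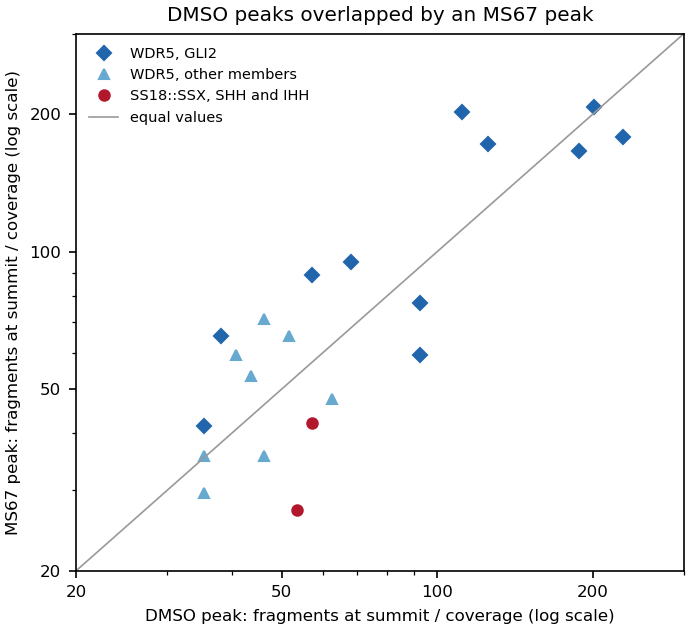
Each point is a DMSO peak and the MS67 peak that overlaps it, by fragments at the summit over the genome-wide coverage of each list (both axes logarithmic), with the line of equal values. Of the 19 WDR5 pairs 12 lie above the line, and both SS18::SSX pairs lie below it.

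Among 35 other genes of the pathway, 19 had an SS18::SSX peak in their window with DMSO (54.3%) and 2 with MS67 (5.71%), and 32 had a WDR5 peak with DMSO (91.4%) and 28 with MS67 (80.0%). Over all protein-coding genes these shares were 37.1%, 4.53%, 79.2%, and 60.1% in the same order. WDR5 had a promoter peak at 16 of the 35 with DMSO (45.7%) and at 13 with MS67 (37.1%), beside 42.9% and 27.7% of all protein-coding genes. SS18::SSX had a promoter peak at 9 with DMSO (25.7%) and at none with MS67, beside 13.4% and 0.719%, so no gene had promoter peaks in all 4 lists. The difference between the lists of genes was not tested. For these genes and the target genes below, peaks were counted by window, and some may lie nearer to the start of a neighbouring gene.

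Per kb of window, the most SS18::SSX peaks with DMSO lay at BTRC, the substrate receptor of a ubiquitin ligase that processes GLI proteins, at ARRB2, a β-arrestin, and at SCUBE1, of the family of secreted proteins that help release the ligand. BTRC had 11 SS18::SSX peaks with DMSO and none with MS67, SCUBE1 had 7 and none, and ARRB2 had 2 and 1. The other gene with an SS18::SSX peak with MS67 was PRKACA, the catalytic subunit of protein kinase A, which phosphorylates GLI proteins, with 2 peaks with DMSO and 1 with MS67. For WDR5 with DMSO, ARRB2, the co-receptor gene GAS1, and PRKACA led, with 8, 4, and 6 peaks. With MS67 these genes had 1, 2, and 3 WDR5 peaks, and 0, 1, and 1 of the DMSO peaks were kept. IQCE, whose product anchors a ciliary complex of the pathway, had the most WDR5 peaks per kb with MS67, 5 beside 5 with DMSO, of which 1 DMSO peak was kept.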

How the data were processed

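Peak lists from CUT&RUN in HSSY II cells were grouped by the labels, 1 library per target and treatment. Per the paper, the authors used Bowtie2 for alignment to hg38 and mm10 (spike-in), removed duplicates with Picard and called peaks with MACS2. The submitters' processing notes also name SAMtools 1.9, bedtools 2.28.0, and deepTools 3.3.0. No control library or spike-in scaling of the peak calls is given in the sources used here. The authors deposited for each peak the fold enrichment at its summit (a ratio to local background, which MACS2 takes from up to 10 kb around), its −log10 p and −log10 q, and a score, which was not used.

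Whole fragments at each summit and the local background were solved from fold and p, and matched 100% of peaks within 0.001 in −log10 p. The step was tested on simulated data. The lowest background of a list was taken as its genome-wide coverage. Genes were those of GENCODE 44 on hg38. A promoter peak had its centre between 1000 bp before and 100 bp after an annotated start. Shares carry exact Clopper-Pearson 95% intervals for counting error only. With 1 library per group, no test was made and no p-value computed.

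The 9 members, the lists of 35 other pathway genes and 20 Hedgehog target genes, the motifs, and the alternatives were chosen with earlier results of these data known. Named genes were all members, the genes whose promoter or body a member peak lay in, and from the other lists the 3 genes with most peaks per kb in each peak list and any gene with a promoter peak in all 4. Alternatives were other windows, promoters, overlaps, and thresholds, merged peaks, and assignment by nearest start. The scaling of DMSO peaks to MS67 coverage was added after the data were seen. Python 3.11.15, numpy 2.4.6, scipy 1.17.1, pandas 2.3.3, pysam 0.24.0, and matplotlib 3.10.9 were used.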

Additional observations from a re-analysis of the deposited data

How the results depend on the processing

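Over 63 recomputed values of the 10 counts, 28 stayed within 1.5 times of the reported count and 35 did not. Counting gene bodies only gave 11 SS18::SSX and 33 WDR5 peaks with DMSO and 2 and 13 with MS67, with 1 and 11 DMSO peaks kept and 1 SS18::SSX peak overlapping WDR5. Peaks with a −log10 q above 3 and a fold above 3 (SS18::SSX lists) or above 6 (WDR5 lists) numbered 10 and 4 with DMSO and 2 and 1 with MS67. Of these DMSO peaks, 1 and 0 were kept and 0 of SS18::SSX overlapped WDR5, and 0 members had a promoter peak of either target with DMSO. The paper gives these cut-offs for the peaks in its comparison of CUT&Tag with CUT&RUN. The results above used every deposited peak, which for WDR5 with DMSO gave 57 member peaks, 17 of them kept. Most of these WDR5 peaks thus fall below the cut-offs of the paper. A −log10 q above 5 left 5 and 21 peaks with DMSO and 0 and 3 with MS67, with 0 and 3 kept, 1 overlapping, and promoter peaks at 0 members for SS18::SSX and 1 for WDR5. The direction, fewer peaks with MS67 than with DMSO for both targets, was the same under these settings. This was largely set in advance, because every setting draws on the same lists, which as a whole held fewer peaks with MS67. Counting a partner peak within 1 kb gave 4 kept SS18::SSX peaks, 26 kept WDR5 peaks, and 11 of SS18::SSX beside WDR5, and requiring 50% of the DMSO peak gave 1, 10, and 0. Assigning peaks by the nearest start left 2 overlapping. Promoters of 1 kb each side gave 5 members with an SS18::SSX peak with DMSO and 2 with a WDR5 peak with MS67, and the annotated gene start alone gave 0 for SS18::SSX with DMSO. No paired analysis was possible because each group had 1 library, and no library could be left out for the same reason.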

Other observations

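Among 20 known Hedgehog target genes, 17 had an SS18::SSX peak in their window with DMSO (85%) and 4 with MS67 (20%), and all 20 had a WDR5 peak with DMSO and 13 with MS67 (65%). Over all protein-coding genes these shares were 37.1%, 4.53%, 79.2%, and 60.1% in the same order. Promoter peaks were fewer, at 5 genes for SS18::SSX (25%) and 8 for WDR5 (40%) with DMSO, beside 13.4% and 42.9% of all protein-coding genes. With MS67 no target gene had an SS18::SSX promoter peak and 1, HAND2, had a WDR5 promoter peak (5%), beside 0.719% and 27.7% of all genes. Per kb of window, OLIG2, which specifies motor neuron progenitors, had the most SS18::SSX peaks with DMSO, 10 beside 1 with MS67, and NKX2-2 had 7 and 0. BMI1, a Polycomb subunit gene, had 7 and 0, TBX2 had 5 and 1, and SNAI1, a repressor of epithelial genes, had 1 and 1. For WDR5, RAB34 and FOXL1 had 6 peaks each with DMSO and 1 and 0 with MS67, and HAND2 had 4 and 1. NKX2-2 had 1 WDR5 peak with either treatment, and FOXF1 had 2 with DMSO and 1 with MS67. No WDR5 DMSO peak was kept at NKX2-2, FOXF1, or HAND2, and 1 was kept at RAB34. BCL2, named after its values were seen, had 17 WDR5 peaks with DMSO and 2 with MS67 in a window of 237 kb.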
